A study of Mus musculus with 16 samples.

Results

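Endothelial activation and leukocyte adhesion were followed through 10 mRNAs, Icam1, Icam2, Vcam1, Sele, Selp, Selplg, Lrg1, Vwf, Ackr1 and Madcam1. They were chosen by gene symbol from the 21878 mRNAs measured, and all 10 passed the filter on low counts. By the described protocol, microglia were sorted as CD11b+/CD45int cells from the brains of wild-type female C57BL/6 mice. Each of the 16 mice was 8 weeks old at the start and gave 1 stranded total RNA library. Experimental autoimmune encephalomyelitis (EAE) is a model of multiple sclerosis. It was induced in 8 mice with the myelin peptide MOG35-55 in complete Freund's adjuvant and with pertussis toxin. The labels of the EAE samples give 200 µg of the peptide, 200 ng of the toxin and injections on days 0, 2 and 7. The other 8 mice received PBS injections by the same protocol. Brains were taken on day 14, when the EAE mice had a clinical score of 3 to 4. The sources used here do not say whether adjuvant or toxin was part of the PBS injections, so the effects of the peptide, the adjuvant and the toxin cannot be told apart. In the labels, the last residue of the peptide goes up from 55 in EAE 1 to 62 in EAE 8, while the described protocol gives 55 for all.

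Leukocytes leave the blood in steps. Selectins on the vessel wall slow them by binding carbohydrate ligands, chemokines then activate their integrins, and the integrins hold on to members of the immunoglobulin superfamily on the endothelium until the cells pass through. Inflammatory cytokines such as TNF and IL-1 switch on several of these endothelial genes through NF-kB, and in EAE the interaction of VLA-4 integrin with VCAM-1 is a well-known route by which T cells enter the central nervous system.

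Total counts ranged from 24587443 to 30244215 in EAE libraries and from 26031889 to 34184576 in PBS libraries. The label of the sorted cells was read against marker genes, as summed FPKM (fragments per kilobase of transcript, scaled to the number of mapped fragments). The 16 microglia markers summed to 221–362 in EAE and 206–342 in PBS-treated mice. The 10 neuron markers summed to 937–1140 and 1105–1218, and the 18 endothelial markers to 79.6–127 and 88.5–115. The 9 astrocyte markers summed to 1199–1830 and 1400–1661, and the 8 oligodendrocyte markers to 932–1307 and 1030–1268. In every library the neuron, astrocyte and oligodendrocyte sums each exceeded the microglia sum. RNA of other brain cells was therefore present in every library, and the level of an endothelial gene cannot be assigned to microglia. In bulk libraries, fewer cells of a type and less RNA per cell cannot be told apart. Within the groups, EAE 6, EAE 7 and EAE 8 were most alike, as were PBS 5, PBS 7 and PBS 8. The median squared difference of their pairs was 3.14–3.95 times that of counting noise, against 5.75–21.8 times for other pairs of a group. No source names a batch, and results that rest on these 6 libraries are given with and without them.

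None of the 10 genes passed the test between EAE mice and PBS-treated mice. The edgeR quasi-likelihood test called 0 of 10 at a Benjamini-Hochberg adjusted p under 0.05, whereas it called 2.42% of the 17885 mRNAs tested (1.76% lower, 0.660% higher). With the study's further threshold of |log2FC| over 1 it called 0 of 10 and 0.117% of all mRNAs. At an unadjusted p under 0.05, 1 of 10 was lower and 0 were higher, beside 9.52% and 7.92% of all mRNAs. DESeq2 called 0 of 10 and 5.03% of all mRNAs. At an unadjusted p under 0.05 it had 1 of 10, beside 3225 of the 17885 mRNAs. Limma on log2(FPKM + 0.1) called 0 of 10 and 1.15% of all mRNAs. At an unadjusted p under 0.05 it had 0 of 10, beside 3390 of the 17885 mRNAs. The log2 fold change (log2FC, EAE against PBS) was above 0 for 4 genes and below 0 for 6, while 47.3% of all mRNAs were below 0, with a median of −0.07 over the 10 genes and 0.01 over all mRNAs. Among all mRNAs the calls were 118 higher and 315 lower, and they were 226 higher and 103 lower when library totals replaced TMM scaling. No gene of the 10 had groups that did not overlap in FPKM, which 0.263% of all mRNAs had.

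**Figure D1:**
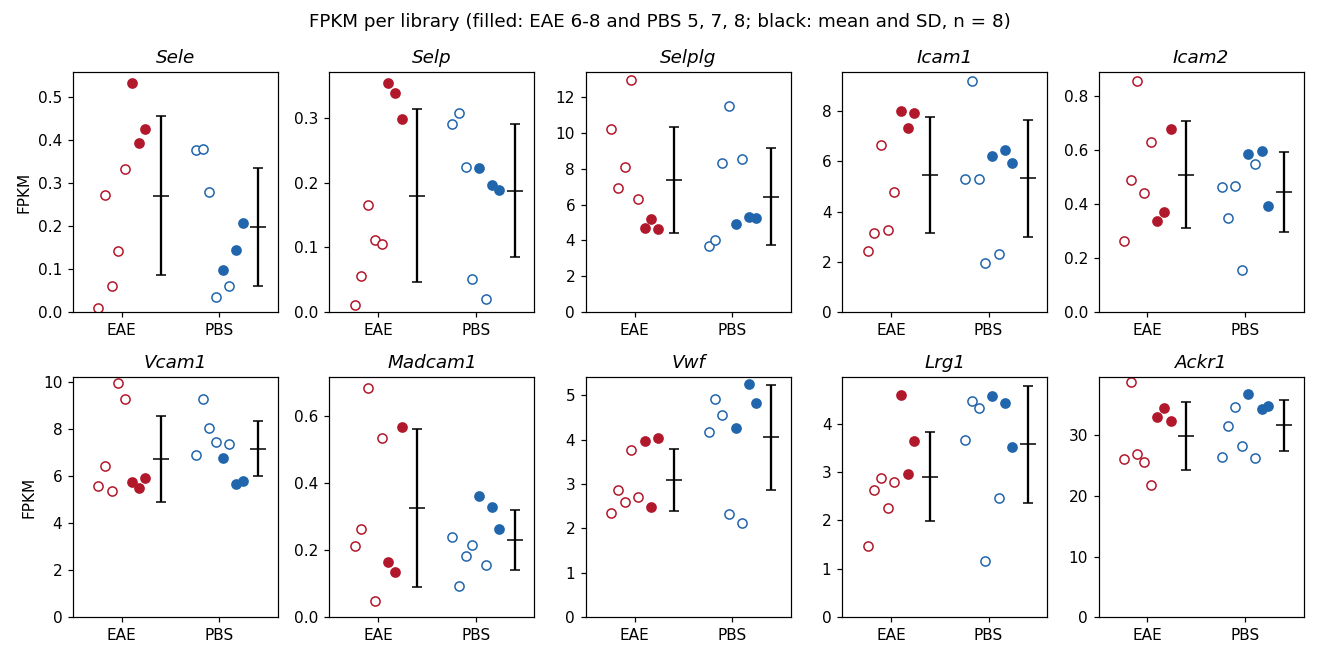
FPKM of the 10 genes (y axis, linear, from 0) in the 8 EAE and the 8 PBS libraries (x axis), 1 point per library, with the mean and SD in black. Filled points are EAE 6, 7 and 8 and PBS 5, 7 and 8. In every panel the EAE and PBS points overlap.

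The genes differed widely in level. Per length, Ackr1 was the highest at a mean of 30.7 FPKM over the 16 libraries, and it exceeded the next gene in 16 of 16 libraries. Its exons overlap those of Cadm3 on the same strand, so its level is uncertain. Vcam1, Selplg and Icam1 followed at 6.94, 6.90 and 5.39 FPKM. Vcam1 exceeded Selplg in 9 libraries and Selplg exceeded Icam1 in 8 of 16, so the order of these neighbours was not kept. Vwf, at 3.57 FPKM, was below Icam1 in 14 of 16 libraries and above Lrg1, at 3.24 FPKM, in 10. Lrg1 lay above Icam2 in 16 of 16 libraries. Icam2, Madcam1, Sele and Selp formed the low end at 0.476, 0.278, 0.235 and 0.184 FPKM. Icam2 exceeded Madcam1 in 15 libraries, Madcam1 exceeded Sele in 9 and Sele exceeded Selp in 11 of 16.

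The selectins bind glycans on passing leukocytes. Sele, or E-selectin, is made by activated endothelium only after transcription has been switched on, and it lies on chromosome 1 from 164048234 to 164057677 on the plus strand of GRCm38. Selp, or P-selectin, is stored in endothelial Weibel-Palade bodies and in platelet granules, and it lies on the same strand of chromosome 1 from 164115264 to 164150026. Promoter sequences were printed for Sele and Icam1, which were higher in EAE mice among the 6 libraries most alike, and for Madcam1. Among the 6 genes with a promoter sequence, Madcam1 held the only exact matches to the NF-kB consensus. Each runs from 250 bases before to 50 bases after the annotated start, and capitals mark the motif matches described with each gene.
Sele promoter, plus strand, GRCm38.p6, chr1:164047984-164048283: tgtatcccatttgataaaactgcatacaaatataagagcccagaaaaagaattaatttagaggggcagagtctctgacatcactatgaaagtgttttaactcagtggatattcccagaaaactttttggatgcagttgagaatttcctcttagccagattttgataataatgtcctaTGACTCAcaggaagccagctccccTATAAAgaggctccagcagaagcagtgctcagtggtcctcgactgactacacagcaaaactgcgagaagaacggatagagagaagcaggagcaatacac
Icam1 promoter, plus strand, GRCm38.p6, chr9:21015690-21015989: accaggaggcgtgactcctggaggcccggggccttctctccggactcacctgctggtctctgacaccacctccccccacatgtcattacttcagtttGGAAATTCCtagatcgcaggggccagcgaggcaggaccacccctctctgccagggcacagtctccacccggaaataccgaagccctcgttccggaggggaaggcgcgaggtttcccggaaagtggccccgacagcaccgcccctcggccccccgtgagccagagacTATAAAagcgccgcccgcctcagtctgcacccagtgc
Madcam1 promoter, plus strand, GRCm38.p6, chr10:79664309-79664608: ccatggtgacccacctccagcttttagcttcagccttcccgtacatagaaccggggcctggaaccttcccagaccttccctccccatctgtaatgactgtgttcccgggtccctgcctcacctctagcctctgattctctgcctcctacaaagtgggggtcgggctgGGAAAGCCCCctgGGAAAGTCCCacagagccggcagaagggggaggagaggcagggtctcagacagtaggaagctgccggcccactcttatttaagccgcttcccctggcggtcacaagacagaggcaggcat

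Sequences came from the set of RefSeq promoters used here, which had an entry for 6 of the 10 genes. Icam2, Vcam1, Selplg and Vwf were not in that set and were not searched for motifs. The motifs were read on both strands, and positions count from 0 at the annotated start. They were the NF-kB consensus, found in 8.46% of 32851 promoters of the same length, the TATA box TATAAA, in 13.6%, the AP-1 site TGANTCA, in 7.81%, and the paired half-site GGAANTTCC, in 0.928%. The last of these was added after the promoters had been seen. A match describes letters and is not a measured binding site. Near matches to a motif were not counted, so a missing match does not show that a promoter lacks such a site. In the Sele promoter, TGACTCA stood at −73 to −67 and TATAAA at −49 to −44. The Selp promoter had TGATTCA at −139 to −133 and no match to the other motifs. Lrg1 had TATAAA at 11 to 16, and Ackr1 had no match to the 4 motifs in this window.

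Sele ranged from 0.00929 over a median of 0.303 to 0.533 FPKM in EAE mice and from 0.0342 over 0.176 to 0.380 FPKM in PBS-treated mice. The groups overlapped almost wholly, with 5 of 8 EAE libraries above the PBS median. The lowest value, in EAE 1, rested on 1 count and the highest, in EAE 6, on 57 counts. The log2FC was 0.41 (SE 0.52, 95% interval −0.66 to 1.48, adjusted p = 0.738 in the edgeR test), so that a fold between 0.633 and 2.79 lay within the interval. The exact permutation test on FPKM gave p = 0.375 (two-sided, 12870 divisions).

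Selp ranged from 0.0110 over a median of 0.139 to 0.354 FPKM in EAE mice and from 0.0209 over 0.209 to 0.308 FPKM in PBS-treated mice. Its highest values were those of EAE 6 and EAE 7, with PBS 2 and EAE 8 next, while EAE 1 and PBS 6 had 1 and 2 counts. The log2FC was −0.11 (SE 0.50, 95% interval −1.16 to 0.93, edgeR adjusted p = 0.938). In exons, 186 bases of Selp overlap the antisense gene Gm16587 and 438 overlap Gm16548 on the other strand. The strand setting of the counting is not given in the sources used here, so these reads cannot be separated.

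Selplg encodes PSGL-1, the main selectin ligand of leukocytes, which microglia also express. It lies on the minus strand of chromosome 5 from 113818536 to 113832644. Its FPKM ranged from 4.62 over a median of 6.59 to 12.9 in EAE mice and from 3.71 over 5.27 to 11.5 in PBS-treated mice. The highest values were those of EAE 4, PBS 4 and EAE 1, and the lowest was that of PBS 1. Its log2FC was 0.14 (SE 0.23, 95% interval −0.34 to 0.63, edgeR adjusted p = 0.809). Selplg thus differed by less between the groups than among the libraries of either group. The summed microglia markers were at their highest in EAE 4, at 362 FPKM, reached 342 in PBS 4 and were lowest in PBS 1, at 206. They were also 341 in EAE 5 and 337 in EAE 2, where Selplg was at 6.28 and 6.90 FPKM. Whether microglial RNA content had a part in the Selplg values was not tested.

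ICAM-1, ICAM-2, VCAM-1 and MAdCAM-1 are immunoglobulin superfamily molecules that integrins bind. Icam1, a cytokine-induced ligand of LFA-1 and Mac-1 that microglia can make too, lies on the plus strand of chromosome 9 from 21015985 to 21028817. In the Icam1 promoter, GGAAATTCC stood at −153 to −145 and TATAAA at 13 to 18. Icam1 ranged from 2.45 over a median of 5.73 to 8.01 FPKM in EAE mice and from 1.96 over 5.62 to 9.21 FPKM in PBS-treated mice. PBS 2 was the highest and PBS 4 the lowest of the 16 libraries, both in the control group. Its mean FPKM was 5.45 ± 2.30 (SD, n = 8) in EAE and 5.33 ± 2.33 in PBS-treated mice. The log2FC was −0.02 (SE 0.28, 95% interval −0.61 to 0.56, edgeR adjusted p = 0.979), and a fold from 0.656 to 1.48 lay within that interval. The antisense gene Gm47079 overlaps 511 of its 4360 exonic bases, or 11.7%.

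Icam2 is present on resting endothelium and on platelets. It lies on the minus strand of chromosome 11 from 106377656 to 106388075. It ranged from 0.264 over a median of 0.464 to 0.853 FPKM in EAE mice and from 0.155 over 0.466 to 0.595 FPKM in PBS-treated mice, on 7 to 33 counts per library. The medians of the groups were nearly equal, and EAE 3 stood highest. The log2FC was 0.14 (SE 0.29, 95% interval −0.47 to 0.75, edgeR adjusted p = 0.852).

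Vcam1, the ligand of VLA-4 that endothelium makes in inflammation and astrocytes can also make, lies on the minus strand of chromosome 3 from 116109949 to 116129688. It ranged from 5.35 over a median of 5.83 to 9.95 FPKM in EAE mice and from 5.68 over 7.13 to 9.25 FPKM in PBS-treated mice. Only EAE 4 and EAE 5 exceeded the PBS median. The log2FC was −0.14 (SE 0.13, 95% interval −0.42 to 0.14, edgeR adjusted p = 0.629), with a fold of 0.748 to 1.10 in the interval. With 447 to 1038 counts per library, Vcam1 had a narrower interval than the other immunoglobulin superfamily members. The antisense gene Gm43109 overlaps 61 of its exonic bases.

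Madcam1 encodes the addressin that guides α4β7-bearing lymphocytes to the gut, and it has been described on choroid plexus epithelium. It lies on the plus strand of chromosome 10 from 79664559 to 79668537. Its promoter had the NF-kB consensus at −83 to −74 and again at −70 to −61, with GGAAAGCCCC and GGAAAGTCCC. Madcam1 ranged from 0.0480 over a median of 0.237 to 0.684 FPKM in EAE mice and from 0.0944 over 0.228 to 0.362 FPKM in PBS-treated mice. EAE 3, EAE 8 and EAE 5 were above every PBS library, whereas EAE 4 was below every one. The log2FC was 0.44 (SE 0.44, 95% interval −0.46 to 1.35, edgeR adjusted p = 0.646), on 2 to 27 counts per library. The 8 choroid plexus markers summed to 77.8–133 FPKM in EAE and 100–240 in PBS-treated mice. Of the 8, 1 was called lower, Ttr, beside 1.76% of all mRNAs.

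Vwf, Lrg1 and Ackr1 mark endothelium in other ways. Vwf encodes von Willebrand factor, the platelet-binding protein of endothelium and megakaryocytes, and lies on the plus strand of chromosome 6 from 125546774 to 125686679. It ranged from 2.35 over a median of 2.79 to 4.03 FPKM in EAE mice and from 2.12 over 4.40 to 5.25 FPKM in PBS-treated mice. No EAE library exceeded the PBS median (0 of 8), yet PBS 6 and PBS 4 had the lowest values of all 16 libraries, so the groups overlapped. The mean was 3.09 ± 0.700 FPKM (SD, n = 8) against 4.05 ± 1.18. The log2FC was −0.44 (SE 0.17, 95% interval −0.79 to −0.09), with an unadjusted p of 0.0171 and an adjusted p of 0.177 in the edgeR test across all mRNAs. The exact permutation test on FPKM gave p = 0.0687. Vwf was thus the 1 gene past the unadjusted threshold, a threshold that 17.4% of all mRNAs passed, and it did not pass after adjustment. Leaving out PBS 6 gave an adjusted p of 0.0546, the lowest among the 16 leave-one-out fits. The 10 platelet and megakaryocyte markers, of which 0 were called, summed to 6.75–11.9 FPKM in EAE and 7.60–10.4 in PBS-treated mice, and 4 of the 10 had no count in at least 1 library.

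Lrg1 encodes a secreted glycoprotein that modifies endothelial TGF-beta signalling and is also stored in neutrophil granules. It lies on the minus strand of chromosome 17 from 56119678 to 56122001. It ranged from 1.48 over a median of 2.84 to 4.58 FPKM in EAE mice and from 1.16 over 3.99 to 4.57 FPKM in PBS-treated mice. Of the EAE libraries only EAE 6 exceeded the PBS median, while PBS 4 was the lowest of all. The log2FC was −0.35 (SE 0.23, 95% interval −0.84 to 0.13, edgeR adjusted p = 0.464). The 14 neutrophil markers summed to 27.2–69.3 FPKM in EAE and 13.4–27.3 in PBS-treated mice. Of these, 5 of 14 were called higher, beside 0.660% of all mRNAs, and 5 of 14 had no count in at least 1 library. The part of neutrophil RNA in the Lrg1 level was not tested.

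Ackr1 encodes the atypical chemokine receptor DARC, found on venular endothelium, erythroid cells and some neurons. It lies on the minus strand of chromosome 1 from 173331886 to 173333750. It ranged from 21.8 over a median of 29.5 to 38.7 FPKM in EAE mice and from 26.3 over 32.8 to 36.7 FPKM in PBS-treated mice. The highest and the lowest values, in EAE 2 and EAE 5, both came from EAE mice. The log2FC was −0.13 (SE 0.10, 95% interval −0.35 to 0.08, edgeR adjusted p = 0.547), which left a fold of 0.784 to 1.06. Ackr1 shares 361 of its 1405 exonic bases, or 25.7%, with the neuronal adhesion gene Cadm3 on the same strand. Cadm3 had 82.5 ± 8.29 FPKM (SD, n = 8) in EAE and 94.2 ± 7.63 in PBS-treated mice. The sources used here do not say how the counting treated reads in the shared bases, so the level of Ackr1 is uncertain.

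**Figure D2:**
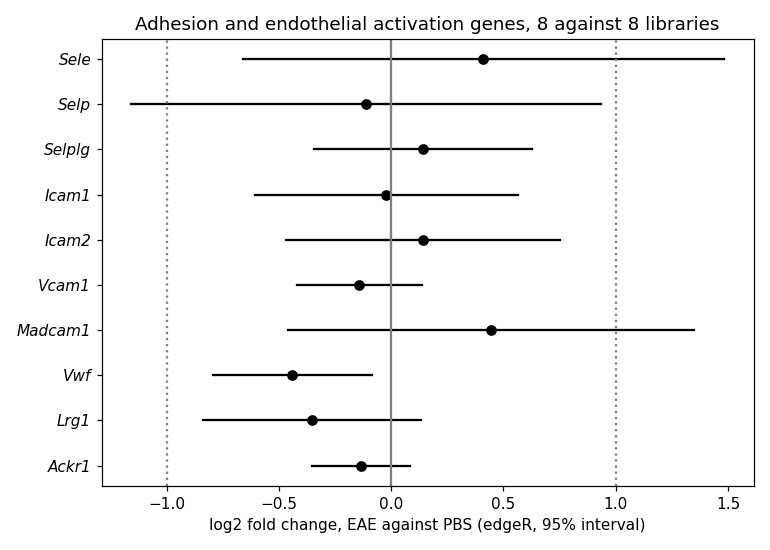
Log2 fold change of EAE against PBS (x axis) for the 10 genes (y axis) from the edgeR fit over 16 libraries, with 95% intervals as bars. The interval of Vwf, from −0.79 to −0.09, lies below 0 and those of the other 9 genes include 0.

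The spread between mice was large for the selectins. The biological coefficient of variation, the spread beyond counting noise relative to the mean, was 0.706 for Sele and 0.668 for Selp, whereas its median over all mRNAs was 0.130. It was 0.524 for Madcam1, 0.389 for Icam1, 0.334 for Icam2, 0.322 for Selplg, 0.318 for Lrg1, 0.236 for Vwf, 0.186 for Vcam1 and 0.146 for Ackr1. All 10 genes were therefore above the median mRNA. Counts were simulated from these libraries with 200 changed mRNAs, all with a mean count of at least 20. The test recovered 71.0% of those with a log2FC of 0.5 and 91.5% of those with 1. The changed mRNAs were drawn at random and kept their own spread, whereas all 10 genes spread more than the median mRNA. These shares therefore describe mRNAs in general and not the 10 genes. Selp and Madcam1, with mean counts of 18 and 12.6, also lay below the count limit. For Sele, Selp and Madcam1 the upper ends of the intervals reached or came close to a log2FC of 1, so a difference of that size was not excluded.

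Several of the genes moved together across libraries. The likeness of 2 genes was measured as the root mean square difference of their standardised log2(CPM + 0.5) over the 16 libraries, which is 0 for an identical pattern and 1.41 for unrelated ones. The value was 0.39 for Icam1 and Selp, 0.55 for Icam1 and Lrg1, 0.63 for Selp and Lrg1, 0.65 for Lrg1 and Vwf and 0.70 for Sele and Selp. Sele, Selp, Icam1 and Lrg1 were all below their mean in EAE 1, EAE 4, PBS 4 and PBS 6 and all above it in EAE 6, EAE 8, PBS 1, PBS 2, PBS 3 and PBS 8. Icam2 and Madcam1 formed a second pair at 0.83, both at their highest in EAE 3. Selplg ran opposite to Icam1, at 1.89, and to Selp and Lrg1, at 1.87 and 1.88. The points share library depth and cell composition, and these values are a description. The 16 NF-kB and cytokine response genes had their lowest sums in PBS 4, at 55.2 FPKM, and PBS 6, at 66.0 FPKM, and their highest, 169–176 FPKM, in EAE 6, EAE 7 and EAE 8. In EAE 1, where Icam1, Sele and Selp were low, the sum was 124 FPKM. Their part in the pattern of Icam1, Sele and Selp was not tested.

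**Figure D3:**
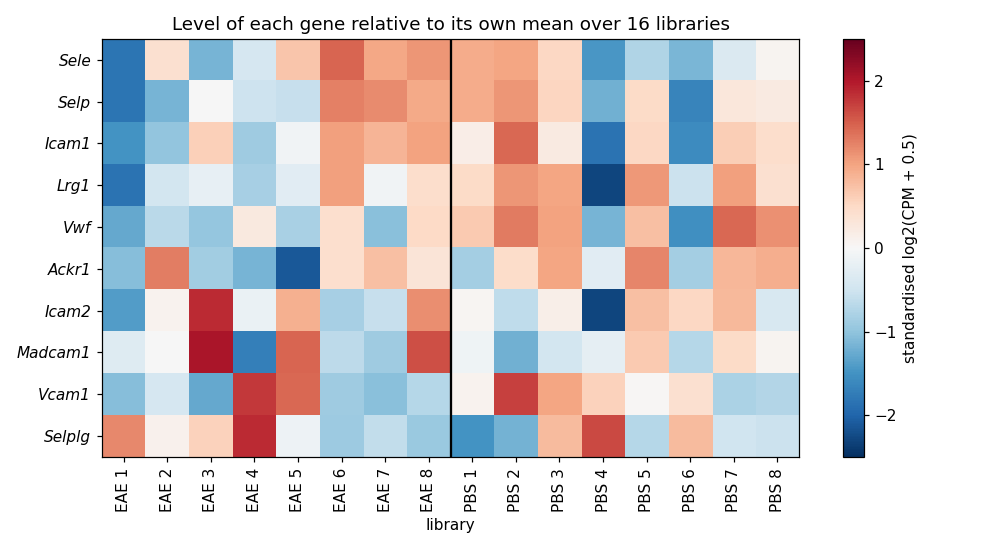
Level of each of the 10 genes (rows) in each of the 16 libraries (columns), as log2(CPM + 0.5) standardised to the gene's own mean and SD. Sele, Selp, Icam1 and Lrg1 are blue (low) in EAE 1, EAE 4, PBS 4 and PBS 6, where Selplg is red (high), and the black line between EAE and PBS separates no row into a high and a low side.

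Among 15162 mRNAs with a mean count of at least 20, the 3 nearest patterns were listed for the 5 highest genes. Gm13889, Ccdc103 and Hmga1 were nearest to Icam1, at 0.29, 0.35 and 0.39. For Vcam1 they were Bmpr1b, Prex2 and Msmo1, at 0.36, 0.36 and 0.40. Selplg was nearest to Chd9, Gm32856 and Car10, at 0.36, 0.38 and 0.41. For Vwf they were Cyp1b1, Pou3f3 and Zfp358, at 0.44, 0.52 and 0.55, and for Ackr1 Rapgef2, Scube2 and Kcnc1, at 0.40, 0.54 and 0.55.

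Within the 6 libraries most alike, the comparison gave another result for some genes. The edgeR test of EAE 6, 7 and 8 against PBS 5, 7 and 8 called 3 of 10 genes, where it called 24.1% of the 17239 mRNAs tested. The share of the 10 genes was thus near that of all mRNAs. The 6 libraries were set apart by their small differences within a group, and the test measures against that same spread. The p-values in these libraries are therefore likely too small and are given as a description. Sele had 0.533, 0.394 and 0.427 FPKM in EAE 6, EAE 7 and EAE 8 and 0.0978, 0.144 and 0.207 FPKM in PBS 5, PBS 7 and PBS 8. Its log2FC was 1.56 in these libraries (edgeR adjusted p = 0.00392). Icam1 had 8.01, 7.33 and 7.93 against 6.22, 6.45 and 5.95 FPKM in the same libraries, with a log2FC of 0.29 (edgeR adjusted p = 0.0119). Vwf had 3.96, 2.49 and 4.03 against 4.26, 5.25 and 4.81 FPKM, with a log2FC of −0.48 (edgeR adjusted p = 0.00234). Selp had 0.354, 0.339 and 0.299 against 0.222, 0.196 and 0.189 FPKM, and its log2FC of 0.68 did not pass the test (edgeR adjusted p = 0.232). The EAE and PBS values did not overlap for these 4 of the 10 genes, nor for 38.1% of all mRNAs tested in these 6 libraries.

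In the other 5 libraries of each group 0 of 10 genes were called, with 0.0745% of all mRNAs called. There the log2FC was −0.53 for Sele, −1.06 for Selp, −0.32 for Icam1 and −0.41 for Vwf. Only Vwf of these 4 had the same sign in both sets. The difference between the sets was tested as an interaction, an alternative added after the data had been seen. The interaction had an adjusted p under 0.05 for 0 of 10 genes in edgeR and for 0.0615% of all mRNAs, and 1 of 10, Sele, had an unadjusted p under 0.05, beside 8.03% of all mRNAs. For Sele the log2FC differed by 2.08 between the sets (unadjusted p = 0.0439, adjusted p = 0.612 in the edgeR fit across all mRNAs), and for Selp by 1.73 (adjusted p = 0.650 in edgeR). Sele, Icam1 and Vwf were called in the 6 libraries most alike and in no other fit that was run.

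**Figure D4:**
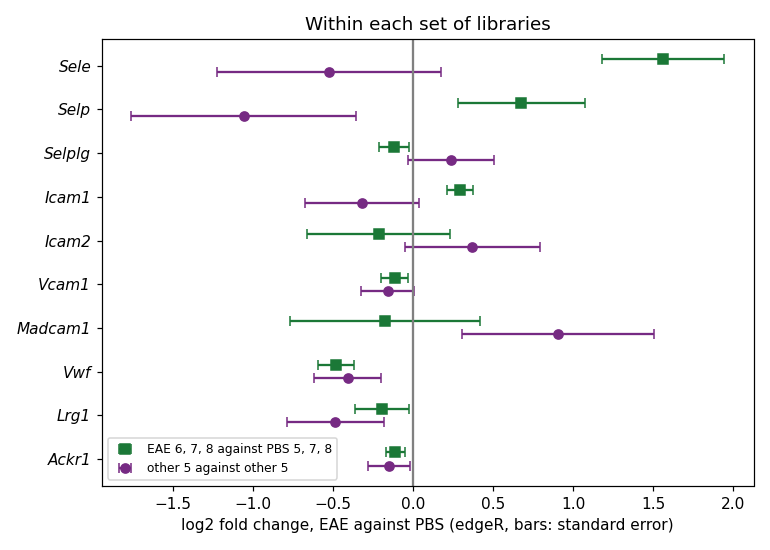
Log2 fold change of EAE against PBS (x axis) for the 10 genes (y axis) in EAE 6, 7, 8 against PBS 5, 7, 8 (green squares) and in the other 5 libraries of each group (purple circles), with standard errors as bars. Sele is at 1.56 in the first set and −0.53 in the second, and Vwf is at −0.48 and −0.41.

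The partners of the 10 genes on leukocytes and endothelium were followed in 7 lists. Of their 84 genes edgeR called 1 higher and 4 lower, beside 0.660% and 1.76% of all mRNAs. In the edgeR test, 1 of 7 leukocyte integrin chains rose, Itgam, the αM chain of Mac-1, which binds ICAM-1 and by which the cells were sorted as CD11b. Itgam had 8.24 ± 0.764 FPKM (SD, n = 8) in EAE and 5.77 ± 0.466 in PBS-treated mice, and its log2FC was 0.46 (SE 0.07, edgeR adjusted p = 0.00179). It was called in 16 of 16 leave-one-out fits, and within the 5 libraries of each group that were less alike its log2FC was 0.51 (edgeR adjusted p = 0.0637). Of 15 selectin ligands and their glycosyltransferases 1 fell, Glg1, which encodes the E-selectin ligand ESL-1 (log2FC −0.21, SE 0.05, edgeR adjusted p = 0.0277). Of 13 diapedesis and junction genes 1 fell, Cd47, the ligand of SIRPα (log2FC −0.22, SE 0.06, edgeR adjusted p = 0.0470). Of 8 other immunoglobulin superfamily adhesion genes 2 fell, the neural adhesion genes Ncam1 (log2FC −0.15, edgeR adjusted p = 0.0265) and Icam5 (log2FC −0.23, edgeR adjusted p = 0.0385). With library totals in place of TMM, Itgam and Tnfrsf1b were called higher and these 4 lower calls were lost.

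In the edgeR test over the 16 libraries no gene was called in the lists closest to endothelial activation. DESeq2, which called 5.03% of all mRNAs, called 3 genes of these lists. They were Tnfrsf1b (DESeq2 adjusted p = 0.0349), Lifr (DESeq2 adjusted p = 0.0356) and Mfsd2a (DESeq2 adjusted p = 0.0126). Of 10 endothelial cytokine receptors 0 passed in edgeR and 2 had an unadjusted p under 0.05, as 17.4% of all mRNAs had. These were Tnfrsf1b, a TNF receptor (log2FC 0.28, edgeR adjusted p = 0.0812), and Lifr, the receptor of LIF (log2FC −0.15, edgeR adjusted p = 0.0892). Of 16 NF-kB and cytokine response genes 0 passed in edgeR, with a median log2FC of 0.29 beside 0.01 over all mRNAs and with 12 of 16 above 0. Its smallest p-values were those of the interferon-induced chemokine gene Cxcl10 (log2FC 1.79, edgeR adjusted p = 0.0883) and the transcription factor gene Irf1 (log2FC 0.50, edgeR adjusted p = 0.250). Of the 18 endothelial cell markers 0 passed in edgeR and 1 had an unadjusted p under 0.05. The smallest p-values there were those of Mfsd2a, the lipid transporter of brain endothelium (log2FC −0.44, edgeR adjusted p = 0.0579), and Ly6c1 (log2FC −0.32, edgeR adjusted p = 0.291).

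**Figure D5:**
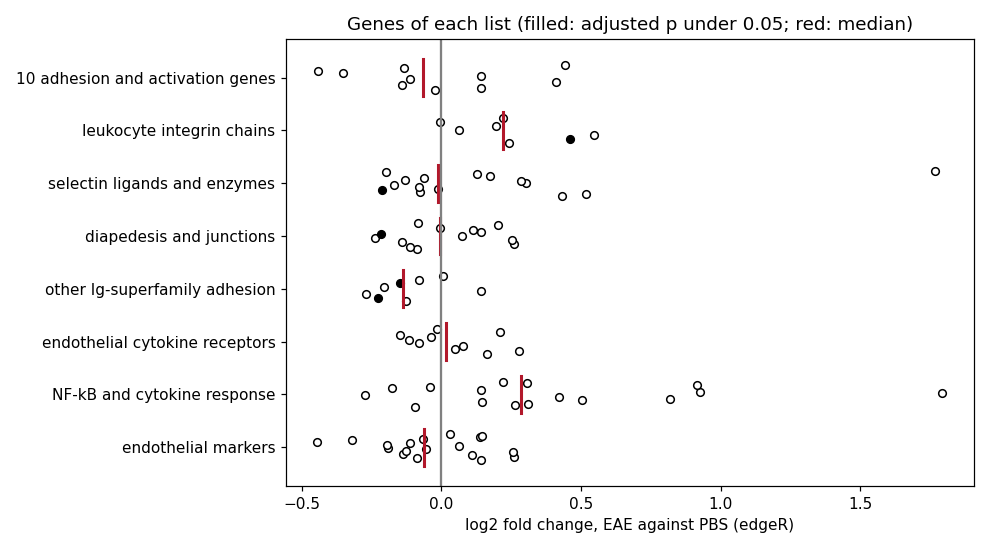
Log2 fold change of EAE against PBS (x axis, edgeR) for every gene of the 10 adhesion and activation genes and of 7 lists (y axis), with the median of each list as a red bar. Filled points had an adjusted p under 0.05 and are Itgam, Glg1, Cd47, Ncam1 and Icam5, none of which is among the 10 genes.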

How the data were processed

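The authors removed low-quality reads, used HISAT2 2.1.0 for alignment to GRCm38, counted reads with HTSeq 0.11.2 and deposited raw counts and FPKM values per mRNA and library. The submitters' processing notes also name DESeq2 1.22.2 and bcl2fastq. The strand setting, on which counts of overlapping genes depend, is not given in the sources used here. Groups came from the labels, with 1 library per mouse. Counts were tested here with edgeR 4.0.16 in R 4.3.3 (quasi-likelihood test, TMM, a minimum total of 16 counts per mRNA, Benjamini-Hochberg over 17885 mRNAs). The script was tested on simulated data. FPKM values were compared by a two-sided exact permutation test, whose smallest p is 0.000155. Intervals are 95%. Alternatives were DESeq2 1.42.0, limma 3.58.1 on log2(FPKM + 0.1) and log2(FPKM + 1), library totals, no filter, covariates, library sets, a replicate block and leaving out each library. Positions came from GENCODE vM21. The 10 genes, the 7 lists of partners and the 13 lists of cell type markers were chosen with earlier results of these data known. Named were the 10 genes, the called genes of each of the 7 lists or otherwise its 2 smallest p-values, and the nearest patterns.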

Additional observations from a re-analysis of the deposited data

How the results depend on the processing

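The number of the 10 genes called stayed at 0 in all settings run, including every fit without 1 library, except for 3 in EAE 6, 7, 8 against PBS 5, 7, 8. Among all mRNAs the 433 calls became 899 with DESeq2, 205 and 237 with limma on log2(FPKM + 0.1) and log2(FPKM + 1), 768 with a term for the library sets, 4147 in the 6 libraries most alike and 13 in the others. In the 7 lists the 5 calls became 2 with library totals (2 higher, against 1 higher and 4 lower), 8 with DESeq2, 1 and 1 with limma, 8 with the term, 35 in the 6 libraries and 0 in the others. Leaving out 1 library gave 144 (without PBS 2) to 1317 (without EAE 4) calls among all mRNAs and 1 (without EAE 1, EAE 2, EAE 3, PBS 2 or PBS 7) to 11 (without EAE 4) in the lists. Of these fits, 7 of 16 called Glg1, 4 called Cd47, 10 called Ncam1 and 5 called Icam5.

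The sign of 6 genes turned in some settings. Icam1 was at 0.0280 with library totals, 0.0537 and 0.0390 with limma, 0.0318 with endothelial markers as a covariate and 0.29 in the 6 libraries, and it ranged from −0.15 to 0.14 with 1 library left out. The corresponding ranges were −0.32 to 0.0701 for Selp and −0.0184 to 0.32 for Selplg. In the 6 libraries Icam2 was at −0.22, Selp at 0.68, Selplg at −0.12 and Madcam1 at −0.18. Sele was at −0.53 in the other libraries. The causes were not tested.

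Same-numbered EAE and PBS libraries did not deviate together as a rule (r from −0.22 to 0.57). Numbers 4, at r = 0.57, and 8, at r = 0.27, were the 2 of 8 closest to their own number. The numbers were therefore taken to name and not to pair the samples. With the replicate number as a block, 0 of 10 genes, 517 mRNAs and 7 list genes were called, and the log2FC of Icam1 was 7.59e-05. Counts as low as 1 to 3 for Sele, Selp and Madcam1 limit what their folds can show.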

Other observations

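Markers of the other cells in the libraries were called as follows in the edgeR test at an adjusted p under 0.05. Among all mRNAs, 0.660% were called higher and 1.76% lower. Among neutrophil markers 5 of 14 were higher, among microglia markers 1 of 16 was higher, among astrocyte markers 1 of 9 was higher and 1 lower, among neuron markers 2 of 10 were lower, among mural cell markers 1 of 10 was lower and among choroid plexus markers 1 of 8 was lower. None were called of 10 platelet and megakaryocyte, 7 monocyte, 8 T cell, 8 border macrophage, 6 erythroid, 8 oligodendrocyte and 5 fibroblast markers. At an unadjusted p under 0.05 these 7 lists had 2, 1, 2, 0, 0, 3 and 1 genes, beside 17.4% of all mRNAs.

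Genes outside the naming rule were looked at after their values had been seen. The patterns nearest to Sele were those of Nfkbiz, an NF-kB response regulator, at 0.50, Isg20 at 0.56 and the AP-1 subunit gene Junb at 0.56, on the scale where unrelated patterns give 1.41. Nearest to Lrg1 were Frat1, Irs2 and Zfp358, at 0.46, 0.48 and 0.48. Of 20 groups of 8 libraries, 1 for each of the 10 genes in EAE and in PBS, none had a library far enough from the others to exceed Dixon's 95% critical value.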
